A study of Mus musculus with 2 samples.

Results

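The natural killer (NK) cells described here are 519 of 5292 filtered leukocytes in the control library of a single-cell RNA-seq experiment on mouse melanoma. With the second library, from NK cell-depleted hosts, the experiment held 9798 filtered cells. They were chosen by their transcripts: a cell was taken as an NK cell when it held at least 1 UMI (unique molecular identifier, a count of distinct RNA molecules) in at least 3 of the 7 genes *Ncr1*, *Klrb1c*, *Klre1*, *Klra8*, *Eomes*, *Prf1* and *Gzma*, and 0 UMIs of *Cd3d*, *Cd3e* and *Csf1r*. The filter kept cells with between 500 and 15000 UMIs, between 200 and 4000 detected genes and no more than 10% of UMIs from mitochondrial genes. Levels of the 10 genes of the rule chose the cells and are therefore given as a description only.

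The tumors grew from *Braf*-mutant melanoma cells that lacked *Ptgs*, the genes of the cyclooxygenases that start prostaglandin synthesis. These cells were injected into C57BL/6 hosts of 8 weeks, and live CD45+ leukocytes were sorted on day 4 from 10 pooled tumors per group, with parental melanoma cells added to the sorted samples. Control hosts were untreated. The NK cell-depleted hosts received 200 µg of anti-NK1.1 antibody and 30 µg of anti-asialo GM1 antibody on days 0 and 2. Titles and the design text call the tumor cells of both groups a knockout, while the genotype field of both reads wild-type, and this conflict could not be settled from the labels. Each group was 1 library, so no comparison had a replicate check, no test was run, and every interval below is a 95% interval that covers counting error only.

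NK cells are innate lymphocytes that kill stressed or transformed cells without a rearranged antigen receptor. Activating and inhibitory receptors set the threshold for release of perforin and granzymes, and interleukins 2, 12, 15 and 18 drive their survival and their interferon-γ. In mice they mature from cells with CD27 on the surface to cells with integrin αM (CD11b, encoded by *Itgam*), and their Ly49 receptors, encoded by the *Klra* genes, are switched on in different combinations from cell to cell. Prostaglandin E2, a product of the cyclooxygenase pathway, is known to restrain NK cells through the receptors EP2 and EP4.

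The 519 NK cells made up 9.81% of the control library (9.02 to 10.6). In the NK cell-depleted library 0 of 4506 filtered cells met the rule, which allows a share of up to 0.0666%. Of the control cells 4537 held 0 of the 7 genes, 173 held 1, only 24 held 2, and 558 held 3 or more, with 168 cells at 6 genes. In the NK cell-depleted library 28 cells held 1 gene, 2 cells held 2 and none held more. Of the 558 control cells with 3 or more genes, 39 were set aside, 26 of them with a *Csf1r* UMI (the receptor of macrophage colony-stimulating factor) and 14 with a UMI of *Cd3d* or *Cd3e* (chains of the T cell receptor complex). The set-aside cells had a median of 6287 UMIs, against 2142 in the NK cells. Libraries shared 7 cell barcodes, 1 of them an NK cell.

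**Figure D1:**
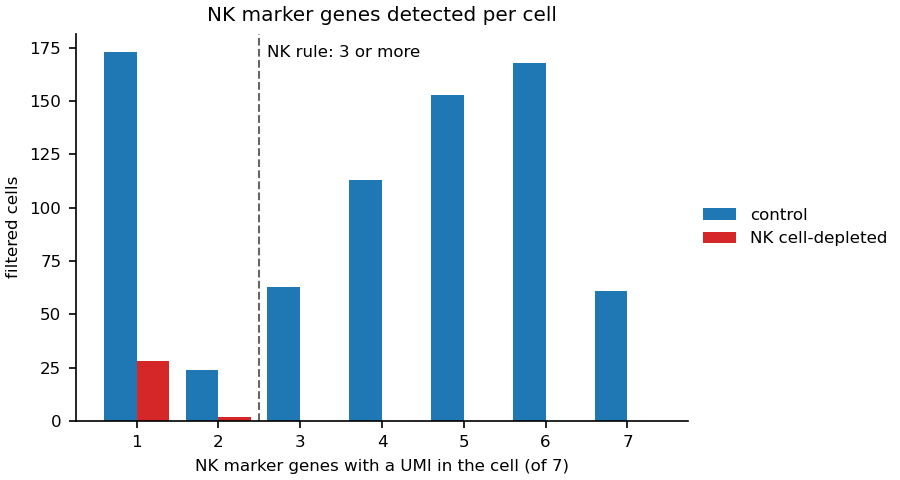
Number of filtered cells (y axis) by how many of the 7 NK marker genes had a UMI in the cell (x axis, 1 to 7; cells with 0 are not drawn), for the control (blue) and NK cell-depleted (red) libraries. Control cells number 173 at 1 gene, 24 at 2 genes and, among those with 3 or more, at most 168 at 6 genes, while the NK cell-depleted library has 28 and 2 cells at 1 and 2 genes and none beyond.

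At the edge of the rule, the 57 NK cells with exactly 3 marker genes had a median of 1727 UMIs, and the 16 cells outside it with 2 genes and no UMI of the 3 excluded genes had 1629. The interleukin-2 receptor chain *Il2rb* stood at 1740 UMIs per 1000000 UMIs of the cells (CPM) just inside and 1783 just outside, and *Nkg7*, a granule membrane protein, at 1042 and 698 CPM. *Lyz2*, the lysozyme of myeloid cells, stood at 233 and 349 CPM in these groups, against 63.4 CPM in the 462 NK cells with 4 or more genes. 

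NK cells held a median of 2142 UMIs (611 to 12973), 1170 genes and 4.13% mitochondrial UMIs, close to the 2303.5 UMIs of the 170 T cells (a UMI in at least 2 of *Cd3d*, *Cd3e* and *Cd3g*, and none of *Csf1r*) and below the 5582 of the 2731 macrophages (a UMI in at least 3 of 6 macrophage genes, among them *Csf1r*, *Adgre1*, *C1qa*, *C1qb* and *Fcgr1*). In all they held 1283706 UMIs, 5.17% of those in the library. Macrophage transcripts were unevenly spread among them: 6 cells, 1.16% (0.425 to 2.499), had UMIs in 3 or more of 8 macrophage genes, with a median of 5349 UMIs, and values without these 6 cells are given where they matter. The levels below are sums over a group of cells, so fewer cells with a transcript and less of it per cell cannot be told apart unless the share of cells is given.

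The NK label was checked on the genes of the rule, which are high by construction, and on genes outside it. *Gzma* (ENSMUSG00000023132), a granzyme, was detected in 96.9% of the NK cells at 5839 CPM, *Prf1* (ENSMUSG00000037202), the pore-forming perforin, in 83.6%, *Klre1* (ENSMUSG00000050241) in 82.1%, *Klrb1c* (ENSMUSG00000030325), which encodes NK1.1, in 76.1%, *Eomes* (ENSMUSG00000032446), a T-box transcription factor, in 71.3%, *Ncr1* (ENSMUSG00000062524), the receptor NKp46, in 51.8% and *Klra8* (ENSMUSG00000089727), the receptor Ly49H, in 47.8%. Among genes outside the rule, *Il2rb* was found in 94.6% of cells at 1761 CPM, *Ccl5* in 94.2% and *Nkg7* in 93.1%. Of the 12 T cell markers outside the rule, 11 were at least 2-fold lower than in T cells, beside 7.03% of all genes. Among them were *Trac* with 8 UMIs and *Cd3g* with 5, the latter a gene by which the T cells were chosen. The exception was *Trbc1*, a constant segment of the T cell receptor β locus, with a UMI in 63.2% of NK cells at 560 CPM against 439 CPM in T cells. *Trbc2* was at 125 against 809 CPM, and since these segments are near-identical their separate counts are uncertain. Against all other control cells, 4 of the 12 T cell markers were at least 2-fold higher and 6 lower, beside 18.5% and 22.5% of all genes. The 12 summed to 795 CPM in NK cells, 3842 in T cells and 124 in all other cells. Markers of other lineages were low: the 11 monocyte and macrophage markers outside the rule summed to 1379 CPM against 16827 CPM in macrophages, and 1102 CPM of that came from *Ccr2*, a chemokine receptor that NK cells share. B cell markers summed to 151 CPM, of which *Ighm* made 149.6, with 5 of 8 members at 0. Neutrophil markers summed to 186 CPM, against 1156 in all other cells and 22.4 in T cells. Of 3 neutrophil markers measured against T cells, 2 were at least 2-fold higher in NK cells and none lower, and 94.4% of the 108 *S100a8* UMIs lay in 5 cells. Dendritic cell markers summed to 340 CPM against 11866 in all other cells, and of 8 melanoma markers 7 were at 0.

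To find what set NK cells apart within the control library, summed UMIs were compared with those of all other 4773 filtered cells. Since the rule chose the cells by transcripts of the same library, these ratios are a description. Among 11866 genes with at least 20 UMIs, 18.5% were at least 2-fold higher in NK cells and 22.5% at least 2-fold lower. Among genes with at least 100 UMIs in NK cells, the highest ratio outside the rule belonged to *Serpinb9b*, a granzyme inhibitor of the serpin family, with 155 UMIs in NK cells and 9 in the others, a 316-fold difference (162 to 703). The next 19 comprised killer cell lectin-like receptor genes (*Klra9*, *Klra4*, *Klra7*, *Klra3*, *Klri2*, *Klrc2*, *Klrc1*), effector genes (*Ifng*, *Xcl1*, *Nkg7*, *Gzmb*, *Gzmc*, *Fasl*) and 6 others. These others were *Khdc1a* (127 against 13 UMIs), the metalloprotease *Adamts14* (221 against 28), the kinase-like *Styk1* (204 against 28), *Samd3* (171 against 28), the neuropeptide gene *Qrfp* (114 against 19) and the carbonic anhydrase *Car2* (428 against 78). *Klra* genes and *Klrc1* and *Klrc2* are close paralogs, so reads may be divided uncertainly among them.

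A set of 178 genes had more than 50% of their control UMIs in NK cells. They were chosen by their counts in the control library, so their lower counts in the NK cell-depleted library are given as a description. *Gzma* had 8268 UMIs in control cells and 0 after NK cell depletion, *Klra8* 1039 and 0, *Xcl1* 606 and 0, *Ncr1* 479 and 0, and *Eomes* 859 and 2. Some genes with an NK share over 50% kept a level: *Klrk1*, which encodes NKG2D, had 1648 control UMIs and 775 UMIs after NK cell depletion, and *Klrd1*, which encodes CD94, 1775 and 674. *Klra4* kept 79 of 1192. Among the other control cells, which include the 39 set-aside cells, *Gzma* stood at 32.8 CPM, *Ifng* at 2.42 CPM and *Ccl5* at 136 CPM, whereas all cells of the NK cell-depleted library held 0, 0.688 and 53.1 CPM. Set-aside cells accounted for 7.70% of all control *Gzma* UMIs and 1.48% of those of *Ifng*. Whether free RNA from NK cells adds to the remaining UMIs was not tested.

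The start-site windows of these genes were read to show regulatory sequence near genes whose control UMIs lay mostly in NK cells. RefSeq windows (250 bases before to 50 after a start, GRCm38.p6) were found for 128 of the 178 genes. Searched on both strands, the RUNX letters TGTGGTT occurred in windows of 22 of 128 genes (17.2%), against 6.09% of all 27025 genes with a window, and the T-box letters GGTGTGA in 11 (8.59%), against 4.60%. Per window the shares were 14.4% against 5.27% for RUNX and 6.90% against 3.98% for T-box. RUNX3 and the T-box factors EOMES and T-bet are transcription factors of NK cells. A match is a run of letters and not a shown binding site. The 178 genes include paralog families such as *Klra* and *Gimap*, whose windows may not be separate instances. All genes with a window were not limited to genes detected in these cells. Whether either point shaped the shares was not tested. The 250 bases before the start are given for a chemokine and for 2 granzyme genes whose windows hold a match, in lower case with matched letters, on either strand, in capitals. *Xcl1* lies on the minus strand (chr1:164935523-164935772) and holds both motifs, *Gzma* on the minus strand (chr13:113100982-113101231) and *Gzmb* on the minus strand (chr14:56262335-56262584).
Xcl1: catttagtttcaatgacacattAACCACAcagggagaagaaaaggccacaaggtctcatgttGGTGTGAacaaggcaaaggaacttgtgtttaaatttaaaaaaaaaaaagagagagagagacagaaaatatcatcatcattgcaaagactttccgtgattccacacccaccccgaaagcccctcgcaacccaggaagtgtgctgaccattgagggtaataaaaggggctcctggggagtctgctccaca
Gzma: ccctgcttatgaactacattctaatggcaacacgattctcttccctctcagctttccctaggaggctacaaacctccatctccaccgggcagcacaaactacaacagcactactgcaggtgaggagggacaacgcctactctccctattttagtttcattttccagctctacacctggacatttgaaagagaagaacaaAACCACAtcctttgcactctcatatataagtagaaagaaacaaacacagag
Gzmb: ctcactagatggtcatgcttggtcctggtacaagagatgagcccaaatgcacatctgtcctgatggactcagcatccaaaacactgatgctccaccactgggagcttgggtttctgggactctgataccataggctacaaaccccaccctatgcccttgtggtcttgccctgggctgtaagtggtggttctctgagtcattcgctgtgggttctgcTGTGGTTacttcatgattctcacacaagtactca
The windows of *Ifng*, *Prf1* and *Eomes* held neither run of letters.

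Compared with T cells, the lymphocytes most like them, NK cells differed by at least 2-fold upward in 8.5% of 7615 genes with 20 or more UMIs and downward in 7.03%. Of the 170 T cells, 9 also held 3 or more NK marker genes. The 10 genes that led this comparison, with at least 100 UMIs over both, were ordered by log2 ratios with 0.5 UMI added. They included *Cma1*, which encodes mast cell chymase, with 149 UMIs in NK cells and 0 in T cells, at least 17.3-fold higher against a floor of 3 UMIs over the T cells. NK cells held only 21.4% of its 696 control UMIs, and all other control cells held 547. The remainder of the 10 were *S100a8* (94.4% of its UMIs in 5 cells), *Ncr1*, *Khdc1a*, *Klrb1a*, *Klra3*, *Irf8*, *Adamts14*, *Klri2* and the sulfatase *Sulf2*. *Irf8*, a transcription factor of myeloid and NK cells, stood at 2187 CPM in NK cells, 82.9 CPM in T cells and 268 CPM in all other cells, a 26.4-fold difference from T cells (19.1 to 37.6). At the opposite end were T cell receptor genes (*Cd3e*, *Cd3d*, *Cd3g*, *Trac*), the T cell factor *Bcl11b* (44.1-fold higher in T cells), the interleukin-7 receptor *Il7r* (47.1-fold; its level in NK cells was 14.8 CPM, or 3.99 CPM without the 6 macrophage-rich cells, with 89.5% of its 19 UMIs in 5 cells), the chemokine receptor *Cxcr6* (55.2-fold), *Tmem64* (30.2-fold), *Ly6a* (21.5-fold) and the nuclear receptor *Rora* (21.0-fold).

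**Figure D2:**
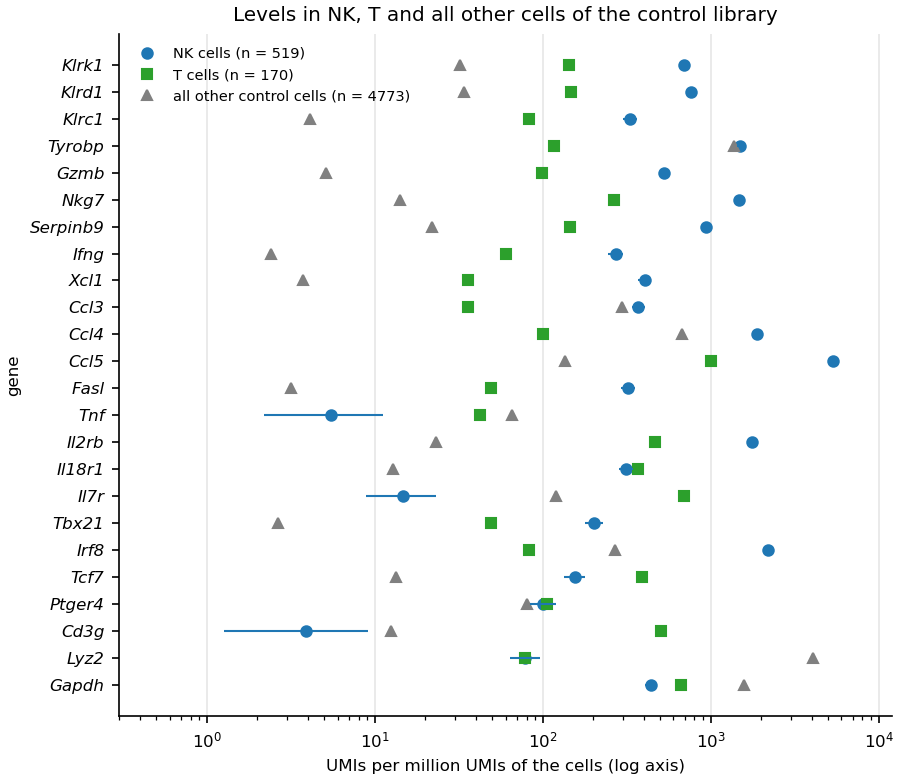
Levels of 24 genes in CPM (x axis, log scale) in NK cells (blue circles, with 95% Poisson intervals as lines), T cells (green squares) and all other control cells (grey triangles). *Irf8* in NK cells lies at 2187, above both other groups at 82.9 and 268, while *Cd3g* (3.89) and *Il7r* (14.8) lie far below T cells and *Ptger4* lies within the same range in all 3 groups.

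The counts of list genes against T cells stand beside the 8.5% of all genes at least 2-fold higher and the 7.03% at least 2-fold lower. Of 17 activating receptor and adaptor genes outside the rule, 12 were at least 2-fold higher in NK cells than in all other cells, beside 18.5% of all genes. Against T cells 12 were at least 2-fold higher, with a median log2 ratio of 2.27 beside 0.01 over all genes. *Klrk1* was at 697 CPM against 143 in T cells, *Klrc2* at 524 against 60.5, and the adaptor *Tyrobp* (DAP12) at 1490 against 117 CPM. *Tyrobp* and the Fc receptor γ chain *Fcer1g* (1300 CPM) were at a similar or higher level in macrophages (1393 and 1834 CPM), whereas *Hcst* (DAP10), which pairs with NKG2D, was at 655 CPM in NK cells and 56.1 in macrophages. The Fc receptor *Fcgr3* had 62 UMIs in 9.44% of NK cells. The inhibitory list had 9 of 15 measured genes at least 2-fold higher than in T cells and 1 lower, *Ctla4*. *Klrd1* stood at 762 CPM and *Klrc1*, which encodes NKG2A, at 331 CPM, against 148 and 82.9 CPM in T cells. *Klrg1*, a receptor of mature cells, was at 89.6 CPM in NK and 82.9 CPM in T cells. Of the checkpoint and dysfunction list, *Pdcd1* had 1 UMI, *Tigit* 2, *Havcr2* 4 and *Lag3* 15 in the 519 cells, whereas *Cblb* had 234, *Tox* 78 and *Cd96* 73. Against T cells 1 of 8 measured genes was at least 2-fold higher and 3 lower. Against all other cells 4 of 10 were at least 2-fold higher and 2 lower, beside 18.5% and 22.5% of all genes, and the list summed to 408 CPM in NK cells, 1049 in T cells and 230 in all other cells. Of 6 Ly49 genes counted together (*Klra1*, *Klra3*, *Klra4*, *Klra7*, *Klra8*, *Klra9*), 27 of 292 cells thinned to 2000 UMIs held none, 73 held 1, 90 held 2, 78 held 3, 22 held 4 and 2 held 5. *Klra8* is a gene of the rule that chose the cells, so these numbers are a description only.

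The cytotoxic list had 7 of 12 measured genes outside the rule at least 2-fold higher than in T cells and none lower. *Gzmb* was detected in 52.6% of the cells at 528 CPM (489 to 569) against 98.6 CPM in T cells, *Nkg7* at 1475 against 267, and the granzyme B inhibitor *Serpinb9* at 939 against 146. *Gzmc* was held by few cells, 22 of 519, with 72.1% of its 122 UMIs in 5 of them. Granule genes used by many leukocytes were lower in NK cells than in all other cells, with *Ctsc* (cathepsin C) at 136 against 1003 CPM, *Lamp1* at 133 against 789 CPM and *Srgn* (serglycin) at 611 against 1525 CPM. Similar to T cells were *Lamp1* (134 CPM) and *Unc13d* (48.3 against 47.0 CPM).

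Among 14 cytokine, chemokine and death ligand genes measured against T cells, 7 were at least 2-fold higher in NK cells and 4 at least 2-fold lower. *Ifng* (ENSMUSG00000055170), interferon-γ, had 349 UMIs in NK cells, 272 CPM (244 to 302), against 60.5 CPM in T cells, and NK cells held 86.0% of the 406 control UMIs. *Xcl1* (ENSMUSG00000026573), a chemokine for cross-presenting dendritic cells, was at 404 CPM against 35.8. *Ccl5* was at 5342 CPM against 1004 in T cells and 37.8 in macrophages. *Ccl4* (1889 CPM) and *Ccl3* (370 CPM) exceeded T cells (101 and 35.8 CPM), while macrophages held 711 and 306 CPM, so NK cells held only 13.3% and 6.40% of the control UMIs. The death ligand *Fasl* was at 322 against 49.3 CPM. *Tnf* was low, with 7 UMIs in 7 cells and 5.45 CPM against 42.6 in T cells and 66.9 in macrophages. *Csf2* had 45 UMIs, all in 5 cells. *Il10*, *Il17a* and *Il22* had 0 UMIs, which allows up to 2.34 CPM. *Ltb*, lymphotoxin β, was at 100.5 CPM, 6.20-fold below T cells.

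Receptors for the activating cytokines were present in part. *Il2rb*, shared by interleukins 2 and 15, was 3.76-fold above T cells (3.26 to 4.35), and *Il18rap*, 470 CPM, was 3.88-fold above them (2.94 to 5.23). *Il18r1*, its partner chain, was at 314 CPM in NK cells and 367 in T cells, a ratio of 0.854 (0.711 to 1.03). *Il12rb2* was at 68.6 against 11.2 CPM, whereas *Il12rb1* was at 30.4 against 47.0 CPM. *Il2ra*, the high-affinity chain, was at 15.6 against 98.6 CPM. Of 25 genes measured in this list, 4 were at least 2-fold higher and 7 at least 2-fold lower than in T cells. The interferon-γ receptor chains went apart, with *Ifngr1* at 885 against 645 CPM and *Ifngr2* at 8 UMIs, or 6.23 against 65.0 CPM. Of 14 measured genes of the interferon response list, none was 2-fold higher and 6 were at least 2-fold lower than in T cells, and the list summed to 821 CPM in NK cells, 2964 in T cells and 3450 in macrophages. *Ifi27l2a* was at 80.2 against 1165 CPM and *Ly6a* at 20.3 against 435, while *Irf1* was at 133 against 117 CPM.

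Of the prostaglandin E2 receptors, *Ptger4* (ENSMUSG00000039942, the receptor EP4) was the one detected above a few UMIs. It had 129 UMIs in 16.6% of NK cells, 100.5 CPM (83.9 to 119), against 105 in T cells and 76.3 in macrophages. *Ptger2*, the receptor EP2, had 4 UMIs, 3.12 CPM (0.849 to 7.98), against 12.7 in macrophages. *Ptger1*, *Ptger3* and *Hpgd*, which breaks down prostaglandins, had 0 UMIs, and the transporter *Slco2a1* had 1.

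Of 23 trafficking genes 7 were at least 2-fold above T cells and 7 below, beside 8.5% and 7.03% of all genes. *Itga2*, the integrin chain stained by DX5, was at 215 against 33.6 CPM. *Ccr2* was at 1102 against 831 CPM. *S1pr5*, which carries NK cells out of tissue, had 49 of 1283706 UMIs in NK cells against 1 of 446336 in T cells. By contrast *S1pr1* was at 56.9 against 410 CPM and *Cxcr6* at 8.57 against 473. *Itgae* had 0 UMIs. Genes of type 1 innate lymphoid cells, close relatives of NK cells, summed to 728 CPM in NK cells, 3114 in T cells and 1803 in all other cells. None of 10 measured was 2-fold higher and 7 were at least 2-fold lower than in T cells. Against all other cells 2 of 11 were at least 2-fold higher and 5 lower, beside 18.5% and 22.5% of all genes. Members with few UMIs were *Tmem176a* with 9, *Tmem176b* with 5 and *Zfp683* with 0, while *Itga1* had 44 (34.3 against 22.4 CPM in T cells). Among 20 transcription factors measured, 3 were at least 2-fold higher (*Tbx21*, *Zeb2* and *Irf8*) and 5 at least 2-fold lower than in T cells. *Tbx21*, which encodes T-bet, was at 203 against 49.3 CPM, *Gata3* at 140 against 419 and *Tcf7* at 155 against 388 CPM. Of the genes tied to NK maturation, 4 of 10 on the *Cd27* side were at least 2-fold higher than in T cells and 4 lower, and on the *Itgam* side 7 of 12 were higher and none lower.

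Of 15 glycolysis genes, 13 were at least 2-fold lower than in all other cells, beside 22.5% of all genes, and the sum was 2511 CPM against 7816, or 2351 CPM without the 6 cells with macrophage transcripts. Against T cells none passed 2-fold in either direction. *Gapdh* was at 440 CPM in NK cells, 668 in T cells and 1581 in all others. Activation and immediate early genes summed to 10548 CPM, 8780 in T cells and 11990 in others. Of these 18 genes, 3 were at least 2-fold higher than in T cells and 2 lower, beside 8.5% and 7.03% of all genes. Their median log2 ratio to T cells was -0.11, beside 0.01 over all genes. Against all other cells 6 were at least 2-fold higher and 7 lower, beside 18.5% and 22.5% of all genes. *Nr4a2* was at 944 CPM against 260 in T cells. Cells with a UMI in at least 3 of 10 cell cycle genes after thinning made up 5.14% of NK cells (15 of 292; 2.90 to 8.33), 6.09% of T cells (2.48 to 12.1) and 1.53% of macrophages (1.10 to 2.08). NK and T intervals overlapped. Of the 16 genes of the cell cycle list, 1 of 14 measured was at least 2-fold higher than in T cells and 1 lower. Against all other cells 12 of 16 were at least 2-fold higher and 0 lower, beside 18.5% and 22.5% of all genes. The list summed to 1968 CPM in NK cells, 2435 in T cells and 938 in all other cells.

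To describe differences among the NK cells, every cell with at least 2000 UMIs was thinned at random to 2000, which kept 292 of 519 and gave all cells equal depth. An *Ifng* UMI was found in 75 of them, 25.7% (20.8 to 31.1), against 0.0767% of 2608 macrophages and 3.48% of 115 T cells thinned alike. Without thinning the share was 27.9% of 519. *Xcl1* was found in 114, 39.0% (33.4 to 44.9), against 0.153% of macrophages and 3.48% of T cells, and in 34.7% unthinned. *Cd27* (ENSMUSG00000030336) was found in 81, 27.7% (22.7 to 33.3), against 0.537% of macrophages and 20.9% of T cells, and in 27.2% unthinned. *Itgam* (ENSMUSG00000030786) was found in 82, 28.1% (23.0 to 33.6), against 1.74% of T cells and 68.8% of macrophages, which express it, and in 37.4% unthinned. *Ifng* and *Xcl1* UMIs were concentrated: 12 cells with 5 or more held 30.9% of the 349 *Ifng* UMIs, with 18 in the highest cell, and 23 cells held 51.0% of the 518 *Xcl1* UMIs, with 38 in the highest. By contrast 1 cell held 5 or more *Cd27* UMIs and 2 cells 5 or more of *Itgam*.

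*Ifng* and *Xcl1* were found together in 28 cells, 9.59% (6.47 to 13.6), and the product of their shares was 10.0%. *Cd27* and *Itgam* were found together in 23 cells, 7.88% (5.06 to 11.6), with a product of 7.79%. Another 58 cells had *Cd27* only, 59 had *Itgam* only, and 152 had neither at this depth.

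Cells with an *Ifng* UMI were compared with the 217 without one, at medians of 2726 and 2829 UMIs before thinning. Of 4481 genes with at least 20 thinned UMIs, 2.14% were at least 2-fold higher and 4.69% at least 2-fold lower. The chemokine genes *Ccl3* and *Ccl4* encode inflammatory chemokines that activated NK cells secrete. *Ccl4* was at 3260 CPM in cells with *Ifng* and 1281 in those without, 2.54-fold (2.25 to 2.88), with a UMI in 73.3% and 55.3% of cells. *Ccl3* was at 647 and 219 CPM, 2.95-fold (2.20 to 3.96). *Ccl5* was at 4867 and 4804 CPM, a ratio of 1.01 (0.930 to 1.10). *Xcl1* was at 460 and 442 CPM, a ratio of 1.04 (0.778 to 1.38), and *Fasl* at 247 and 343 CPM.

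Of 16 measured genes of the activation and immediate early list, 15 had a ratio above 1, beside 51.9% of all genes. Among them 2 were at least 2-fold higher and none 2-fold lower, with a median log2 ratio of 0.65 beside 0.02 over all genes. *Nfkbid*, an inhibitor of the NF-κB pathway, was 2.20-fold higher (1.40 to 3.42), the early activation receptor *Cd69* 2.01-fold (1.37 to 2.92), the nuclear receptor *Nr4a1* 1.94-fold (1.55 to 2.42) and *Nfkbia* 1.76-fold (1.36 to 2.28). *Junb* (1.09, 0.952 to 1.24) and *Irf8* (1.004, 0.879 to 1.14) had intervals that spanned 1, and *Egr1* was at 0.881 (0.555 to 1.36). The adhesion ligand *Icam1* was 2.65-fold higher (1.60 to 4.38). The 10 genes with the highest ratios included *Cxcl10*, *Adar*, *Hmox1*, *Ric8a*, *Smarcc1*, *Gadd45b*, *Ccl3*, *Tubb4b* and *Casp4*. Of these, 89.1% of the *Cxcl10* UMIs lay in 5 cells, and the 3.98-fold difference of *Hmox1* became 0.637 without the 6 cells with macrophage transcripts. *Gadd45b*, a stress-induced gene, was 3.21-fold higher (1.85 to 5.62), or 2.86-fold without those cells. *Ccl4* was 2.56-fold and *Ccl3* 3.09-fold higher without them.

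Of 14 measured cytotoxic granule genes, 1 was at least 2-fold higher, *Serpinb9b* at 2.03 (1.10 to 3.66), and 1 lower, *Gzmc* with 4 and 31 UMIs, a ratio of 0.373 (0.0957 to 1.06). The others included *Gzma* at a ratio of 1.16 (1.07 to 1.26), *Prf1* at 1.05 (0.872 to 1.26) and *Gzmb* at 1.17 (0.886 to 1.52). *Gzma* and *Prf1* belong to the rule that chose the cells. Of 8 genes of the *Cd27* side of maturation 7 had a ratio below 1, beside 48.1% of all genes, and 1 was at least 2-fold lower. Their median log2 ratio was -0.44. *Ltb* was at 60.0 and 143 CPM, a ratio of 0.420 (0.183 to 0.850), and *Cd27* at 0.663 (0.397 to 1.06). The egress receptor *S1pr1* had 2 and 34 UMIs, a ratio of 0.170 (0.0198 to 0.664). The lowest 5 by the rule were *S100a8*, *Ctsl*, *Il1b*, *S100a9* and *Ptgs2*, whose UMIs lay to between 86.8% and 98.6% in 5 cells.

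**Figure D3:**
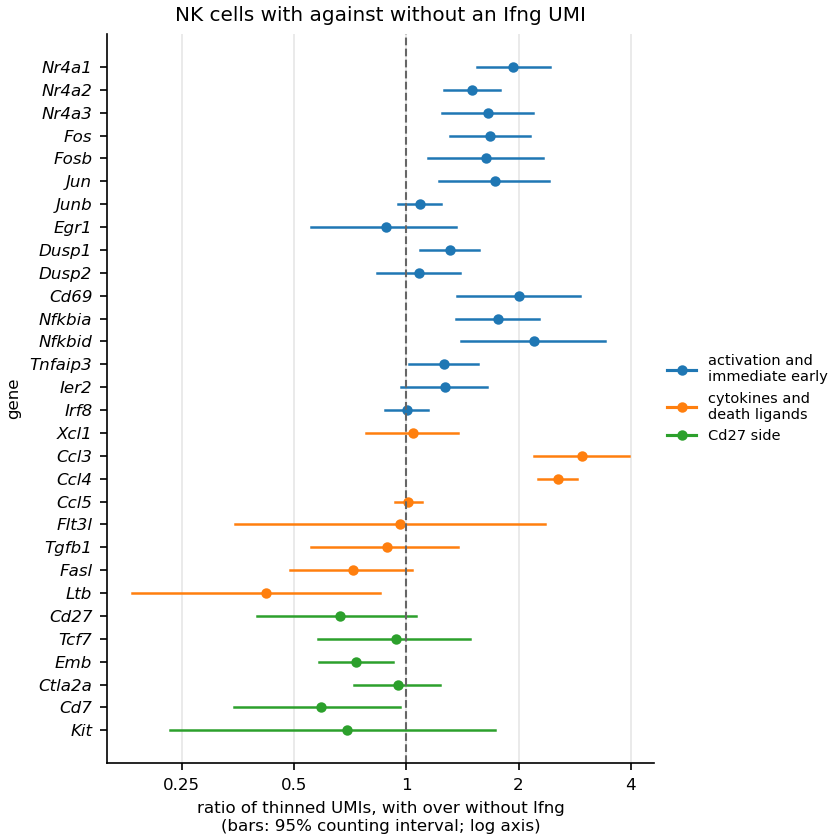
Ratio of thinned UMIs in NK cells with an *Ifng* UMI (n = 75) over those without (n = 217), on a log axis, for list genes with at least 20 thinned UMIs. Points are ratios and bars 95% counting intervals, and the dashed line marks 1. Of the activation genes (blue) 15 of 16 lie above 1, *Ccl3* and *Ccl4* at 2.95 and 2.54, and the genes drawn as *Cd27* side (green) below 1; genes in 2 lists are drawn once.

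Cells with an *Xcl1* UMI, 114, were compared in the same way with the 178 without. Here 1.72% of 4481 genes were at least 2-fold higher and 4.31% at least 2-fold lower. Of 16 measured genes of the activation and immediate early list, 11 had a ratio above 1, beside 46.9% of all genes. Among them 2 were at least 2-fold higher and none 2-fold lower, with a median log2 ratio of 0.12 beside -0.03 over all genes. *Cd69* was 2.87-fold higher (1.95 to 4.26), *Nfkbid* 2.48-fold (1.59 to 3.93), *Ccl3* 1.81-fold (1.35 to 2.43) and *Ccl4* 1.39-fold (1.23 to 1.58). *Ccl5* was lower, at 3373 CPM against 5747, a ratio of 0.587 (0.539 to 0.638), and *Itgam* at 0.520 (0.324 to 0.813). The *Cd27* side genes *Ctla2a* (1.56, 1.25 to 1.96) and *Emb* (1.37, 1.14 to 1.65) were higher, although *Cd27* itself was at 0.928 (0.624 to 1.37). Of 7 measured genes of the *Cd27* side 6 had a ratio above 1, and of 10 of the *Itgam* side 5 did. The top 5 genes were *Ms4a4c* (3.75-fold), the heat shock gene *Hspa1b* (3.58-fold), *Gzmc* (3.41-fold, with 74.3% of its UMIs in 5 cells), *Cd69* and *Slfn8* (2.76-fold). The lowest 5 were *S100a8*, *S100a9*, *Il1b*, *Ctsl* and *Cma1*, the last with 3 UMIs against 40, a ratio of 0.117 (0.0232 to 0.368).

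Cells with *Cd27* only were set against cells with *Itgam* only, the surface proteins used to stage NK cells. Of 2097 genes, 3.34% were at least 2-fold higher with *Cd27* and 3.48% at least 2-fold lower. All 6 measured genes of the *Cd27* side other than *Cd27* had a ratio above 1, beside 51.4% of all genes, 3 of them at least 2-fold, with a median log2 ratio of 0.91 beside 0.02 over all genes. *Ctla2a*, a cysteine protease inhibitor, was 2.31-fold higher (1.55 to 3.50), *Emb*, embigin, 2.09-fold (1.51 to 2.93) and *Ltb* 2.67-fold (1.14 to 6.97). Of 8 genes of the *Itgam* side, 6 had a ratio below 1, beside 48.6% of all genes. Of these 8, 1 was at least 2-fold lower, and their median log2 ratio was -0.27. *Gzmb* was at 259 CPM in *Cd27* cells and 559 in *Itgam* cells, a ratio of 0.462 (0.290 to 0.722), *Spn* (CD43) at 0.565 (0.363 to 0.868) and *Zeb2*, a transcription factor of terminal maturation, at 0.543 (0.342 to 0.847), or 0.657 without the cells with macrophage transcripts, 3 of which carried *Itgam* only. Also below 1 were *Gzma* at 0.611 (0.545 to 0.685), *Prf1* at 0.639 (0.494 to 0.822) and *Ccl5* at 0.628 (0.562 to 0.702). *Gzma* and *Prf1* belong to the rule that chose the cells, so their ratios are a description only. *Eomes* (0.967, 0.699 to 1.34), *Tbx21* (0.842, 0.469 to 1.498) and *Ifng* (0.596, 0.307 to 1.12) had intervals that spanned 1. *Ptger4* had 10 UMIs in *Cd27* cells and 23 in *Itgam* cells, a ratio of 0.442 (0.188 to 0.966).

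The 5 genes with the highest ratios in *Cd27* cells were *Traf1* (3.05-fold), *Plac8* (2.83-fold), *Crot* (2.77-fold), *Gpx4* (2.54-fold) and *Klrb1f* (2.54-fold). The lowest 5, *Ctsl*, *Pf4*, *Lgals3*, *Cd74* and *S100a8*, were genes of myeloid cells. Macrophage-rich cells held 84.2% of the *Ctsl* UMIs and 79.7% of those of *Pf4*, and without them the ratios of these genes were 0.966 and 2.90, and that of *Cd74* was 0.215.

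**Figure D4:**
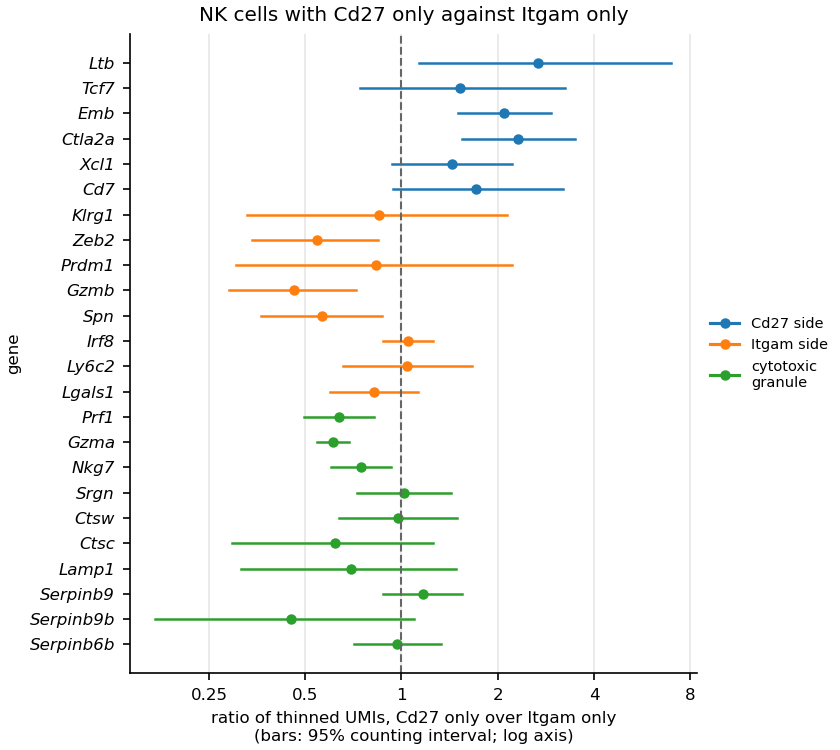
Ratio of thinned UMIs in NK cells with *Cd27* only (n = 58) over those with *Itgam* only (n = 59), on a log axis, for genes with at least 20 thinned UMIs from the *Cd27* side, the *Itgam* side and the cytotoxic granule list. Points are ratios and bars 95% counting intervals. All 6 *Cd27* side genes lie above 1, while *Gzmb*, *Spn*, *Zeb2*, *Prf1* and *Gzma* lie between 0.462 and 0.639. *Prf1* and *Gzma* belong to the rule that chose the cells.

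The spread of each gene over the 292 thinned cells was measured as the ratio of its variance to its mean, which is 1 for random sampling alone. Of 5314 genes with a mean of at least 0.05 UMI, 4.99% had a ratio over 1.5, and the median was 1.06. The chemokine genes *Ccl5* (11.2) and *Ccl4* (10.6) were among the 15 highest, with UMIs in 86.6% and 59.9% of cells. Also spread were *Gzma* (7.82), *Ccl3* (5.68), *Xcl1* (5.10), *Klra4* (3.71), *Klra8* (3.23), *Gzmb* (3.16) and *Ifng* (2.55), with *Gzma* and *Klra8* being genes of the rule. The highest value, 68.5, was that of the noncoding *Gm42418*, and *Malat1*, a nuclear RNA, had 13.0. The other 11 were *Hmox1* (29.0), *Il1b* (27.1), *Pf4* (21.9), the ferritin gene *Fth1* (20.6), *Ctsl* (17.0), *S100a8* (16.3), *Cd74* (16.1), *Cxcl10* (13.6), *S100a9* (11.1), *Ptgs2* (10.1) and *Mmp12* (9.89). Without the 6 macrophage-rich cells the ratios of *Hmox1*, *Ctsl*, *Mmp12*, *Pf4* and *Fth1* were 1.15, 0.982, 0.975, 1.75 and 3.27, and those of *Ccl5* and *Ccl4* 11.3 and 10.7. *Il1b* stayed at 27.6, with 89.3% of its UMIs in 5 cells, and *S100a8* at 16.3, with 98.6% in 5 cells.

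**Figure D5:**
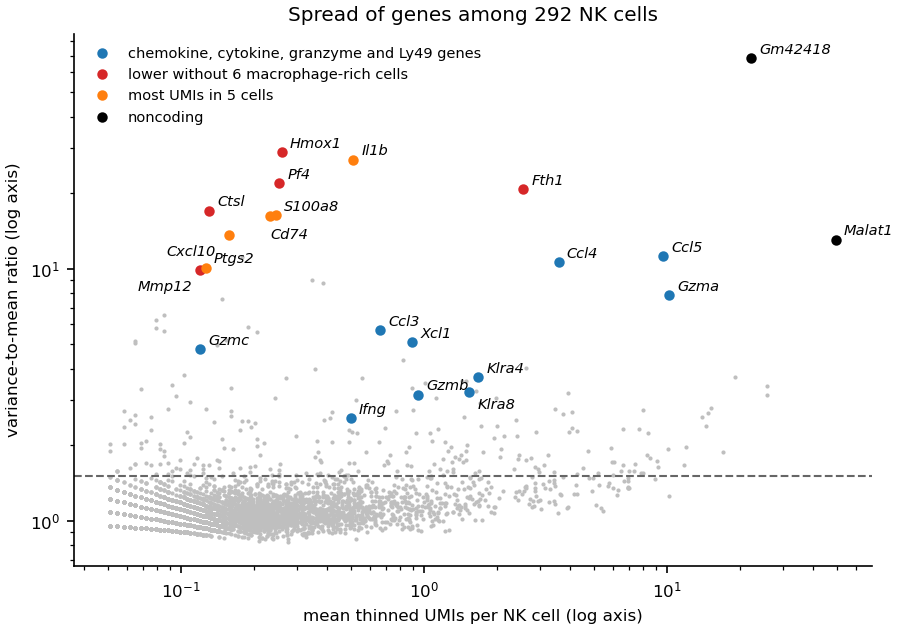
Variance-to-mean ratio (y axis, log scale) against mean thinned UMIs per cell (x axis, log scale) for genes among 292 NK cells; the dashed line marks 1.5. *Ccl5*, *Ccl4* and *Gzma* (blue) lie at 11.2, 10.6 and 7.82, while genes such as *Hmox1* and *Ctsl* (red) are lower without 6 macrophage-rich cells and *S100a8* (orange) has most UMIs in 5 cells.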

How the data were processed

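Live CD45+ cells were loaded on a droplet chip for 3' single-cell RNA-seq (Chromium v3). The authors aligned reads to mm10 and called cells with Cell Ranger (3.0.2 in the file headers; the study's methods name another release), and the count matrices they deposited hold UMI counts per gene and cell, of 31053 genes. Of 6115 control and 5536 NK cell-depleted cells, 5292 and 4506 passed a filter with the limits given in the study's methods, with medians of 4170 and 4893 UMIs. The cell number in the study's figure legend equals the total before this filter, so it differs from the set used here. A table of normalized values they also deposited was not used. Members and gene lists were chosen with earlier results of these data known.

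UMIs were summed over cells and scaled to 1000000. The 3' counts were not divided by gene length, and levels are compared between cell groups within a gene. Log2 ratios had 0.5 UMI added per sum. Genes with at least 20 UMIs were measured. Sums carry exact Poisson, shares Clopper-Pearson and ratios conditional binomial 95% intervals. A count of 0 was given the limit of 3 counts. Named genes were members of 22 lists, the rule's genes, *Ifng*, *Itgam*, *Cd27*, *Xcl1*, the 20 genes highest over other cells (100 or more UMIs in NK cells), the 10 highest and 10 lowest against T cells (100 or more UMIs over both), the 10 highest and 5 lowest for the *Ifng* split and 5 and 5 for each other split (30 or more thinned UMIs, interval excluding 1) and the 15 with the largest variance-to-mean ratio. *Cd244a* was not matched by symbol. A few genes that these rules name are not reported here. Doublets were kept; Scrublet (scanpy 1.11.5, expected rate 5%) called 52 control cells, 12 of them NK cells, and leaving them out was an alternative. Scripts ran in Python with NumPy and SciPy and were tested on simulated data. Windows and sequences are from RefSeq (GRCm38.p6).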

Additional observations from a re-analysis of the deposited data

Results flagged for a closer look

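Among cells outside the filter, 22 control cells with over 10% mitochondrial UMIs met the NK rule, of 606 such cells. In the NK cell-depleted library 0 of 675 did. A further 4 control cells above the upper limits of UMIs or genes, of 212, held 3 or more NK marker genes, and each also held a UMI of *Cd3d*, *Cd3e* or *Csf1r*. In the NK cell-depleted library 0 of 353 did. Both were noted as signal in cells outside the filter, which the comparisons of the report did not use, above the 3 counts that a count of 0 allows. Only the alternative without upper limits included the second set, among the cells that are not NK cells.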

How the results depend on the processing

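The 12 results were recomputed under 12 alternatives, 112 values in all, of which 99 stayed within the counting interval of the value or within 1.5 times of the count. The number of NK cells was 462 with at least 4 of 7 marker genes and 367 with at least 1000 UMIs and at most 5% mitochondrial UMIs. With genes of 50 or more UMIs, fewer genes were measured, and 363 were at least 2-fold higher and 240 lower than in T cells, and 15 higher and 31 lower with an *Ifng* UMI. With thinning to 1000 UMIs, which lowers detection by construction, the shares were 17.7% for *Ifng*, 21.9% for *Xcl1*, 12.9% for *Cd27* and 21.1% for *Itgam*, and 118 genes had a variance-to-mean ratio over 1.5. Without thinning, *Itgam* was found in 37.4% and 163 genes were at least 2-fold higher with *Ifng*. Another draw of the thinning, added after the data were seen, gave 24.7% for *Ifng* and 133 genes higher against 96. No paired analysis was possible because each group was 1 library. Leaving out a replicate was likewise impossible. Depth limits the shares: 292 of 519 NK cells reached 2000 UMIs.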
